A study of Mus musculus with 8 samples.

Results

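Transcripts of 10 enzymes of glycolysis were followed in long-term hematopoietic stem cells (LT-HSC) of aged mice: Hk1, Gpi1, Pfkl, Aldoa, Tpi1, Gapdh, Pgk1, Eno1, Pkm and Ldha. They were taken by gene symbol from the deposited tables, as 10 of 18174 gene symbols, and 9 of the 10 were listed in all 8 tables. Eno1 was not listed in the table of Dlk1+ replicate 3. Together they held 7859 of 2604866 unique molecular identifiers (UMIs), or 0.302%.

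The cells came from untreated male wild-type C57BL/6J mice aged 18 months, as in all groups. LT-HSC were sorted from the marrow of crushed long bones, hips and vertebrae by a surface phenotype without lineage markers, CD48 and CD34 and with CD150, Kit and Sca1, and then as Dlk1+ or Dlk1-, Dlk1 being a membrane protein related to Notch ligands. Each group had 4 libraries of mCEL-Seq2, in which every well gives the 3′ ends of polyadenylated RNA a cell barcode and a UMI. The labels tie no animal to a library, so the p-values measure only the spread between libraries, which may be technical.

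Glycolysis turns glucose into pyruvate. Hexokinase, phosphofructokinase and pyruvate kinase catalyse its practically irreversible steps, and lactate dehydrogenase regenerates the NAD+ that Gapdh consumes by reducing pyruvate to lactate. Quiescent LT-HSC are known for reliance on glycolysis and low mitochondrial activity, and many glycolysis genes are textbook targets of the hypoxia-inducible factor Hif-1.

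Because Hif-1 binds the core letters ACGTG or GCGTG, the RefSeq promoter windows of the members (GRCm38.p6, the 250 bases before each annotated start) were searched for both words on both strands. All 10 members matched, with 17 windows, of which 12 held a match, and 8 of the 10 genes had a match in at least 1 window. Among all 32851 windows of the same length 38.6% held a match, and 41.5% of 27025 genes. Some windows of Eno1 and of Aldoa overlapped and held the same matches, which were counted once per window. The members also had more windows per gene (17 for 10 genes) than all genes (32851 for 27025), so the shares by gene are not like for like. The palindrome CACGTG holds the word on both strands and counts as 2 matches. Printed are the windows of the lactate-producing enzyme Ldha, with 5 matches the most of any member, of Pgk1, the first ATP-yielding enzyme of the pathway, and of Gapdh, the most abundant member, with 2 matches each. Capitals mark the matched letters, and each window runs 5′ to 3′ on the strand of its gene. A match in a window is a description and no binding was measured.
Ldha, chr7:46845554-46845803, plus strand: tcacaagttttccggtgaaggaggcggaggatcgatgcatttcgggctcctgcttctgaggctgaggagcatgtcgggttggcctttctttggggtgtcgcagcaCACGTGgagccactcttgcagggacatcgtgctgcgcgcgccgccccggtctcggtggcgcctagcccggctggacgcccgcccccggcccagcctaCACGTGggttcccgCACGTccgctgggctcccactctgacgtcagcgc
Pgk1, chrX:106186850-106187099, plus strand: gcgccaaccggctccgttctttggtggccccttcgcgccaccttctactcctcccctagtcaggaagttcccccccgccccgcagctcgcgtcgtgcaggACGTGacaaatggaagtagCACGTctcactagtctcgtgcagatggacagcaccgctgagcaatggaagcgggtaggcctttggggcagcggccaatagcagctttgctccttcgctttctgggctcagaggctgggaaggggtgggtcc
Gapdh, chr6:125165774-125166023, minus strand: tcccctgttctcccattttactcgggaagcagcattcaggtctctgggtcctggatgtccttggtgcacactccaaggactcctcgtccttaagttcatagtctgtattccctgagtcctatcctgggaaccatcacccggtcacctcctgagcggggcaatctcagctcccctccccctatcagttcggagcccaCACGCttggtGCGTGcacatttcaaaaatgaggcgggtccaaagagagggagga
Windows with at least 3 matches made up 6.58% of all windows. The printed Ldha window and a downstream Hk1 window (chr10:62340422-62340671, minus strand, 3 matches) were the member windows of that kind. Gpi1 and Tpi1 had no match in their single window.

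After the filter on cells (at least 1000 transcripts, described under the processing), 220 Dlk1+ and 321 Dlk1- cells remained, between 26 and 96 per library with 38488 to 496831 UMIs. Libraries of a group used the same set of well barcodes: 84 of 86 barcodes of the Dlk1+ and 96 of 96 of the Dlk1- cells occurred in at least 2 libraries, and 0 were shared between the groups. Dlk1+ replicate 3 stood apart, with 26 cells and a median of 1300 transcripts per cell against 3421 to 5584 in the other libraries. Dlk1 itself had 507 ± 146.1 CPM in Dlk1+ libraries, where CPM scales transcripts to a library total of 1e+06, and 28.6 ± 23.9 CPM in Dlk1- libraries (SD over 4 libraries each), without overlap. HSC markers summed to between 1587 and 2601 CPM in all 8 libraries and all 10 of them were detected. Of the markers of other cells, myeloid genes reached 6181 CPM in Dlk1+ replicate 4 and at most 367 CPM elsewhere, where Mpo, Elane and Ctsg were at 0. In that library 1 cell held 2364 UMIs of Mpo, Elane, Ctsg, S100a8, S100a9 and Ngp, against at most 3 in any other. It carried 36327 UMIs, 8.07% of the library, and 223 UMIs of the 10 enzymes, 14.0% of the library's enzyme UMIs. B cell, T cell and liver lists stayed at or below 33.5 CPM and endothelium at or below 90.1. The 6 stroma markers, all detected, summed to 28.5 to 107.4 CPM in the Dlk1+ and 7.73 to 30.4 CPM in the Dlk1- libraries. These sums rest on few UMIs over all 8 libraries. Col1a2 had 30, Cxcl12 22, Col1a1 6, Lepr 4, Col3a1 2 and Kitl 1. Lepr went the other way, with means of 0.55 CPM in the Dlk1+ and 2.13 CPM in the Dlk1- libraries. The part of stroma markers in the results below was not tested. The erythroid list lay between 307 and 911 CPM, most of it from Car2, and the megakaryocyte list between 207 and 768, highest in Dlk1+ replicate 3.

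The enzymes differed widely in level. Since a UMI stands for a transcript 3′ end whatever the length of the transcript, CPM were compared between genes without division by length. Gapdh was the most abundant member with 1033 ± 312 CPM over the 8 libraries (SD), rank 99 of 17884 detected genes. Pkm followed with 696 ± 317, Ldha with 484 ± 146.0, Aldoa with 361 ± 222, Gpi1 with 315 ± 199, Hk1 with 148 ± 70.0, Tpi1 with 145 ± 34.3, Pfkl with 58.5 ± 14.7, Eno1 with 49.9 ± 27.6 and Pgk1 with 37.9 ± 13.7 CPM. The last gene ranked 3592.

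Neighbours in this order were compared by their log2 ratio within each library and called different where its mean exceeded its SD over the 8 libraries. Gapdh lay above Pkm (0.61 ± 0.39), Pkm above Ldha (0.48 ± 0.22), Ldha above Aldoa (0.53 ± 0.33), Gpi1 above Hk1 (1.03 ± 0.30) and Tpi1 above Pfkl (1.30 ± 0.63). Aldoa and Gpi1 (0.20 ± 0.27), Hk1 and Tpi1 (-0.04 ± 0.89), Pfkl and Eno1 (0.81 ± 2.23) and Eno1 and Pgk1 (-0.15 ± 1.88) did not differ beyond their spread. Without Dlk1+ replicate 3 the first 3 places were Gapdh, Pkm and Ldha in every one of the 7 remaining libraries, and Eno1 lay above Pgk1 (0.50 ± 0.33).

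**Figure D1:**
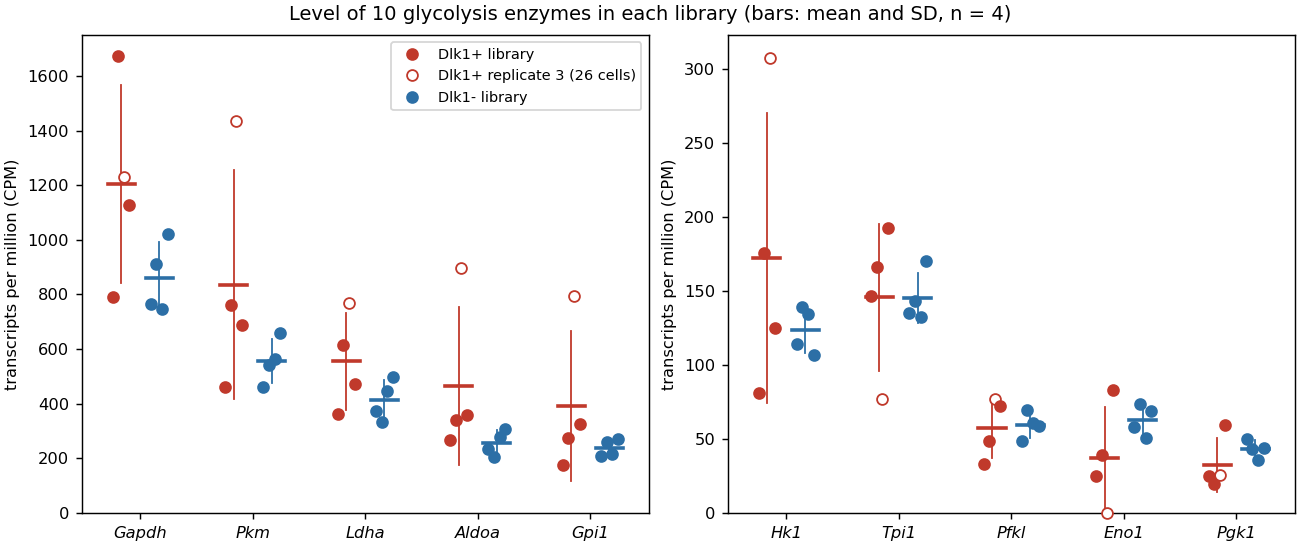
Level of each enzyme in each library in CPM (linear axis from 0), 5 more abundant members on the left and 5 less abundant on the right. Dots are libraries, Dlk1+ in red and Dlk1- in blue, the open circle is Dlk1+ replicate 3, and bars give the mean and SD of 4 libraries. The open circle is the highest dot for Pkm, Ldha, Aldoa, Gpi1, Hk1 and Pfkl and the lowest for Tpi1 and Eno1.

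Hk1, which traps glucose in the cell as glucose 6-phosphate (chromosome 10, 62268855 to 62379908, minus strand, GENCODE release 21 on GRCm38), had 80.9, 176, 307 and 125 CPM in Dlk1+ replicates 1 to 4 and 114, 139, 135 and 107 CPM in Dlk1- replicates 1 to 4. The Dlk1+ libraries held both the lowest and the highest value, so the groups overlapped. Gpi1 converts glucose 6-phosphate to fructose 6-phosphate (chromosome 7, 34201330 to 34230336, minus strand), and had 174, 273, 794 and 324 CPM in the Dlk1+ and 207, 260.5, 217 and 270.4 CPM in the Dlk1- libraries. Dlk1+ replicate 3 was far above all others and Dlk1+ replicate 1 below all others. Pfkl, the liver type of phosphofructokinase (chromosome 10, 77986947 to 78010083, minus strand), had 32.9, 48.8, 76.8 and 72.2 CPM in the Dlk1+ libraries against 48.3, 69.4, 61.0 and 58.7 CPM in the Dlk1- libraries. The Dlk1- values lay inside the range of the Dlk1+ values.

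Aldoa splits fructose 1,6-bisphosphate into the 2 triose phosphates (chromosome 7, 126795234 to 126800751, minus strand). It had 265, 342, 896 and 357 CPM in the Dlk1+ libraries and 236, 204, 278 and 308 CPM in the Dlk1- libraries. In these values the groups overlapped through Dlk1+ replicate 1 only, which lay below Dlk1- replicates 3 and 4. Tpi1, which interconverts the triose phosphates (chromosome 6, 124810586 to 124814296, minus strand), had 147, 166, 76.8 and 192.7 CPM in the Dlk1+ libraries against 135, 143, 133 and 169.8 CPM in the Dlk1- libraries. Dlk1+ replicate 3 was the lowest library, and the group means were equal within 1 CPM (145.5 ± 49.5 and 145 ± 17.02, SD, n = 4 each).

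Gapdh, which oxidises glyceraldehyde 3-phosphate (chromosome 6, 125161715 to 125166467, minus strand), had 789, 1671, 1229 and 1126 CPM in the Dlk1+ libraries against 766, 912, 747 and 1022 CPM in the Dlk1- libraries. Of the Dlk1+ libraries 3 lay above every Dlk1- library and replicate 1 did not. Pgk1 (chromosome X, 106187100 to 106203699, plus strand) had 25.3, 19.5, 25.6 and 59.1 CPM in the Dlk1+ libraries against 50.2, 43.4, 35.8 and 44.0 CPM in the Dlk1- libraries. Here 3 Dlk1+ libraries lay below every Dlk1- library and replicate 4 above all of them. The gene had 114 UMIs over all cells, the fewest of any member.

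Eno1, which forms phosphoenolpyruvate (chromosome 4, 150236721 to 150248879, plus strand), had 25.3, 39.0, 0 and 83.2 CPM in the Dlk1+ libraries against 58.0, 73.8, 50.5 and 69.2 CPM in the Dlk1- libraries. The 0 of Dlk1+ replicate 3 allows a level of up to 77.9 CPM (3 counts of that library's UMIs, counting error only), which covers all but the highest of the other libraries. Pkm makes pyruvate (chromosome 9, 59656368 to 59679375, plus strand), and had 460.2, 762, 1434 and 688 CPM in the Dlk1+ libraries against 462, 543, 562 and 658 CPM in the Dlk1- libraries. Dlk1+ replicates 2 to 4 lay above every Dlk1- library and replicate 1 below them. Ldha (chromosome 7, 46841475 to 46855627, plus strand) had 362, 615, 768 and 473 CPM in the Dlk1+ libraries against 373, 334, 446 and 497 CPM in the Dlk1- libraries, with 2 Dlk1+ libraries above all Dlk1- libraries.

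In terms of isoenzymes, members led all 5 families in which more than 1 gene was detected. Hk1, the ubiquitous hexokinase bound to mitochondria, made up 56.4% of hexokinase transcripts (325 of 576 UMIs) and led in 8 of 8 libraries, with 46.4% to 85.7% of the family. Hk2, the insulin- and hypoxia-responsive type, held 29.5% and Hk3 14.1%, while Hkdc1 had 0 UMIs. Pfkl held 46.3% of phosphofructokinase (152 of 328 UMIs), Pfkp, the platelet type, 35.7% and Pfkm, the muscle type, 18.0%. Pfkl led in 6 of 8 libraries. Pfkp led in Dlk1+ replicate 2 with 47.6% and in Dlk1- replicate 3 with 43.5%, so the order of these 2 isoenzymes was not the same in every library.

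Aldoa held 94.8% of aldolase transcripts (786 of 829 UMIs) and Aldoc the rest. Ldha held 86.7% of lactate dehydrogenase transcripts (1171 of 1351 UMIs) with 82.8% to 91.1% per library, Ldhb, the heart type, 9.40%, and Ldhd, an enzyme for D-lactate, 3.92%. The share of Ldha did not differ between the sorts beyond the spread, with 87.3% ± 3.09 of its family in Dlk1+ and 85.8% ± 2.90 in Dlk1- libraries (SD, n = 4 each). Eno1 held 59.1% of enolase (156 of 264 UMIs), Eno1b 23.5%, Eno3, the muscle type, 9.85% and Eno2, the neuronal type, 6.82%. Eno1 led in 7 libraries. Dlk1+ replicate 3 had a single enolase UMI, of Eno2.

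For pyruvate kinase, phosphoglycerate kinase and glyceraldehyde phosphate dehydrogenase the relatives of liver and red cells (Pklr) or testis (Pgk2 and Gapdhs) were in no table, nor were Pgam2 and Ldhc. A 3′ count by gene symbol does not separate the splice forms of Pkm (M1 and M2). Phosphoglycerate mutase, the step between Pgk1 and the enolases, was outside the 10 genes. Its isoenzyme Pgam1 had 159.5 ± 115.7 CPM in the Dlk1+ and 121 ± 14.7 CPM in the Dlk1- libraries (320 UMIs), more than Pgk1 or Eno1 in the same libraries' means.

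**Figure D2:**
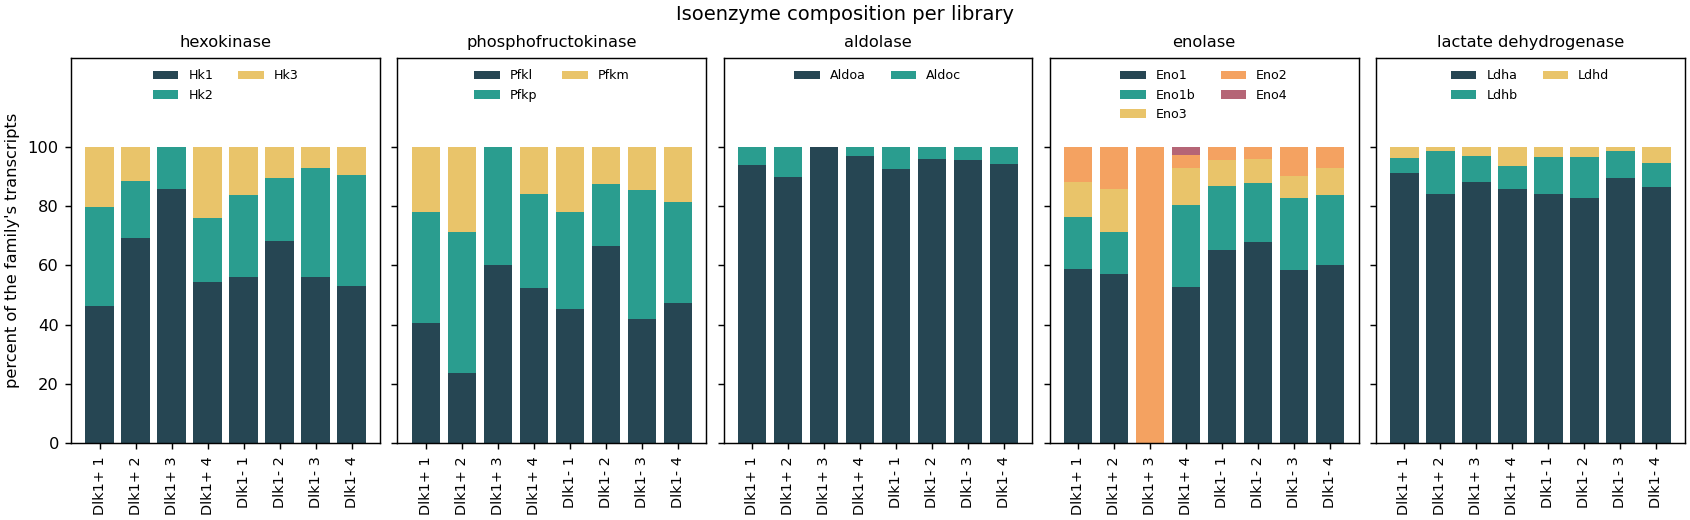
Share of each isoenzyme in its family's transcripts (percent, linear axis from 0) for the 5 families with more than 1 detected gene. Each bar is a library, Dlk1+ 1 to 4 and Dlk1- 1 to 4, and colours are isoenzymes. Aldoa (at least 89.7%) and Ldha (at least 82.8%) dominate in every bar, Hk1 and Pfkl share their families with Hk2, Hk3, Pfkp and Pfkm, and the single-coloured enolase bar of Dlk1+ 3 rests on 1 UMI.

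Transcripts of several members resemble those of other genes at their 3′ end, where the reads lie. Of the 50-base windows in the last 400 bases of each transcript, 87.7% of those of Gapdh and 83.8% of those of Eno1 occurred in another annotated gene, against 5.41% of Gpi1, 1.71% of Aldoa and 0% of the other 6 members. The enolase counterpart was Eno1b, so the split of reads between Eno1 and Eno1b is uncertain. For Gapdh it was chiefly Gm3839, which shared 65.0% of the windows and had 3276 UMIs, more than the 2492 of Gapdh. Gm3839 had 2062 ± 1242 CPM in the Dlk1+ and 1116 ± 143 CPM in the Dlk1- libraries (SD, n = 4 each).

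Gapdh took 42.4% to 45.3% of the summed UMIs of Gapdh and Gm3839 in 7 libraries and 24.5% in Dlk1+ replicate 3 (95% Wilson interval 19.0% to 31.0%, counting error only). That library had 48 UMIs of Gapdh and 148 of Gm3839. With both symbols added the level was 3266 ± 1431 CPM in the Dlk1+ and 1978 ± 269 CPM in the Dlk1- libraries. At the sum, Dlk1+ replicate 3 had 5020.4 CPM, the highest of all libraries, while by Gapdh alone it ranked behind Dlk1+ replicate 2. Gm3839 was not a member and its fold change of 0.68 on the log2 scale (standard error 0.33) had an adjusted p of 0.652 by limma with Benjamini-Hochberg adjustment.

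The comparison of the sorts asked whether the enzymes differed between LT-HSC with and without surface Dlk1. No member passed the test. Transcripts were summed per library and log2(CPM + 1) was fitted with limma across 5666 genes, with Benjamini-Hochberg adjustment and a threshold of 0.05. The test called 0 of 10 members beside 0% of all 5666 genes, Dlk1 included (log2 fold change 4.59, adjusted p of 0.495). At an unadjusted p under 0.05 there were 0 members against 197 genes (3.48%). A second tool, limma-voom, called 2 genes, Dlk1 (adjusted p of 5.01e-05) and Timp3 (0.0133), and 0 members. The fold change was above 0 for 6 of 10 members, beside 36.3% of all genes. The median was 0.33 for the members and -0.23 for all genes tested, and 0.14 and -0.03 without Dlk1+ replicate 3, the shallow library in which many genes were at 0.

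Aldoa had the smallest p of the members. Its log2 fold change, 0.68 (standard error 0.31), had an unadjusted p of 0.0571 and, after Benjamini-Hochberg adjustment of the limma p-values, 0.652. After scaling of the library sizes by trimmed mean of M-values, its Dlk1+ values (329, 333, 820 and 312 CPM for replicates 1 to 4, where 820 is replicate 3) all lay above its Dlk1- values (249, 221, 286 and 270 CPM). Among all genes tested 1.55% had groups that did not overlap in that direction, and Aldoa was 1 member of 10. Unscaled, the groups overlapped as described above. Without Dlk1+ replicate 3 the log2 fold change of Aldoa was 0.34 (standard error 0.16).

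The other upper and lower glycolytic genes with positive values were Gpi1 (0.46, standard error 0.35), Pkm (0.45, 0.26), Gapdh (0.42, 0.21), Ldha (0.36, 0.21) and Hk1 (0.29, 0.34), with adjusted p of 0.652, or 0.697 for Hk1, by limma. Without Dlk1+ replicate 3 Gapdh was 0.43, Ldha 0.23, Pkm 0.19, Gpi1 0.09 and Hk1 -0.0071. Gapdh moved under other settings: it was 0.26 without Dlk1+ replicate 2, 0.055 with a minimum of 2000 transcripts per cell and 0.14 with cells thinned to 2000 UMIs. With that minimum and with thinning, respectively, Ldha was 0.036 and 0.094, Gpi1 0.13 and 0.12, and Pkm 0.29 and 0.15, while Aldoa was 0.60 and 0.76. Only 4 cells of Dlk1+ replicate 3 reached 2000 UMIs, and that library kept full weight in these fits. The median over all genes tested was -1.15 with the minimum and -0.47 with thinning, against -0.23 in the main fit. By the values without Dlk1+ replicate 3, those of Gpi1, Pkm and Hk1 rested largely on 1 library of 26 cells. Negative values were found for Eno1 (-1.87, standard error 1.18), Pgk1 (-0.56, 0.38), Pfkl (-0.13, 0.28) and Tpi1 (-0.09, 0.30). Without Dlk1+ replicate 3, where Eno1 was at 0, Eno1 was -0.49, and Tpi1 was 0.22. The 95% intervals covered 0 for each of the 10 and were wide: that of Pgk1 ran from -1.40 to 0.29 and that of Gapdh from -0.04 to 0.88, so differences of the sizes listed cannot be told from none at this depth.

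**Figure D3:**
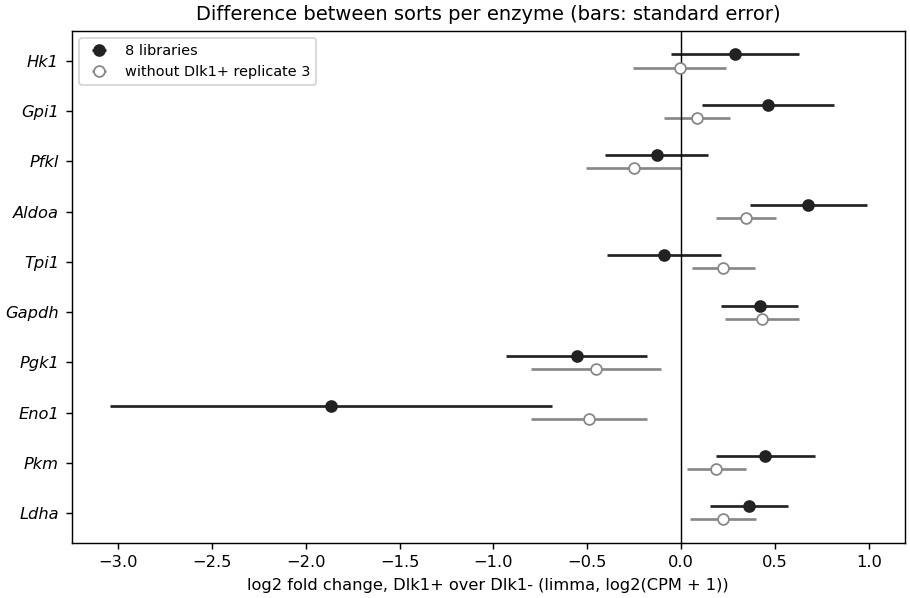
Log2 fold change of each enzyme, Dlk1+ over Dlk1-, from limma on log2(CPM + 1), in pathway order from Hk1 to Ldha; bars are standard errors. Filled points use all 8 libraries and open points leave out Dlk1+ replicate 3. Aldoa (0.68 and 0.34), Gapdh (0.42 and 0.43), Pkm, Ldha and Gpi1 lie right of 0 in both, and Pgk1, Eno1 and Pfkl left of 0 in both. Tpi1 changes sides, and so does Hk1 (0.29 and -0.0071).

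Plate 5 carried replicates 1 and 2 of both sorts, plate 6 the others. Within plates, with 2 libraries a group and no test, differences of mean log2(CPM + 1) were taken after scaling by trimmed mean of M-values. The difference kept its sign for Ldha (0.45 on plate 5 and 0.27 on plate 6), Aldoa (0.49 and 0.86), Gapdh (0.50 and 0.34), Pkm (0.28 and 0.62), Pgk1 (-1.003 and -0.11) and Eno1 (-0.999 and -2.73). It did not for Hk1 (-0.04 and 0.62), Gpi1 (-0.05 and 0.98), Pfkl (-0.49 and 0.23) and Tpi1 (0.20 and -0.38). Plate 6 holds Dlk1+ replicate 3.

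The summed level of the 10 enzymes was 2362, 4111, 5607 and 3500.3 CPM in Dlk1+ replicates 1 to 4 and 2449, 2723, 2664 and 3204 CPM in Dlk1- replicates 1 to 4. Of the Dlk1+ libraries 3 lay above every Dlk1- library and replicate 1 below every one. The means were 3895 ± 1352 and 2760.1 ± 319 CPM (SD, n = 4 each), a log2 difference of 0.44 beside a pooled SD of 0.38. It was 0.24 without Dlk1+ replicate 3, 0.65 without Dlk1+ replicate 1 and 0.41 without the cell with granule transcripts (Dlk1+ replicate 4 then had 3276 CPM). Dlk1+ replicate 1, the lowest library, also had the largest share of the abundant transcripts Gm10800 and Gm26870, 32.8% against 10.1% to 26.7% in the others. With these 2 left out of the totals the sums were 3515, 5358, 7394 and 3895 CPM in the Dlk1+ libraries against 3327, 3713, 3450 and 3630 CPM in the Dlk1- libraries, where Dlk1+ replicate 1 lay among the Dlk1- libraries.

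Neighbouring pathways were described from 7 lists of genes. Of their tested genes 0 passed in either direction. The medians below stand beside -0.23 over all genes tested, and those without Dlk1+ replicate 3 beside -0.03. Of glucose and lactate transport 3 of 9 genes were abundant enough for the test. The lactate transporter partner Bsg had a log2 fold change of -0.0070 (-0.17 without Dlk1+ replicate 3), the high-affinity glucose transporter Slc2a3 0.35 and the lactate transporter Slc16a1 -0.30. Slc2a1, the glucose transporter most often tied to Hif-1, had 53 UMIs and was too rare. Of the genes that set glycolytic flux 4 of 12 were tested and all 4 had negative values, among them Minpp1 (-0.26), a phosphatase that also acts on 2,3-bisphosphoglycerate, Pgm2 (-0.48), a phosphoglucomutase, and Pfkfb3 (-0.99), whose product activates phosphofructokinase. Pfkfb3 was at 0 in Dlk1+ replicate 3. Without that library Minpp1 (0.070) and Pfkfb3 (0.26) were above 0 and Pgm2 was -0.43, and the list median moved from -0.73 to -0.18.

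Pyruvate entry to mitochondria had 8 of 15 genes tested, 5 above 0, with a median of 0.17. The pyruvate dehydrogenase subunits Pdha1 and Pdhb had 0.24 and 0.26, and the kinase Pdk3, which inhibits that enzyme, 0.33, or 0.033 without Dlk1+ replicate 3. The pentose phosphate branch had 7 of 8 tested, 4 above 0, with a median of 0.17. Its members Tkt, Taldo1 and G6pdx had 0.38, 0.17 and 0.29, and without Dlk1+ replicate 3 they had 0.11, 0.24 and 0.18, with a list median of 0.11. Of the hypoxia factors 4 of 9 were tested with a median of -0.97, and 0.30 without Dlk1+ replicate 3, in which Hif1a (-0.995), Egln2 (-0.94) and Arnt (-1.37) were all at 0. So the sign of that list turned with 1 library.

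Hypoxia targets outside glycolysis had 5 of 15 tested, 1 above 0, and a median of -0.17. The mitophagy receptor Bnip3l had -0.17, Ndrg1 -0.03 and the mTORC1 inhibitor Ddit4 -0.45, or -0.066 without Dlk1+ replicate 3. Among regulators of quiescence and metabolism 7 of 10 were tested and 2 were above 0, with a median of -0.28 (-0.17 without Dlk1+ replicate 3). Txnip, a brake on glucose uptake, had -1.43, Meis1 -0.28 and Mycn -0.16, and without that library they had -0.22, -0.17 and -0.08. The gene of this list with an unadjusted p under 0.05 by limma, named after its values were seen, was the growth regulator Myc. It had -2.07 (unadjusted p of 0.0045 and adjusted p of 0.652 by limma) and -1.91 without that library. Over all genes tested 3.48% had an unadjusted p under 0.05. Myc had 12.6, 29.3, 25.6 and 131.4 CPM in the Dlk1+ libraries against 123.7, 147.6, 185.1 and 121.6 CPM in the Dlk1- libraries. Dlk1+ replicate 4 lay among the Dlk1- libraries, so the groups overlapped. Txnip had 908, 303, 25.6 and 1128 CPM in the Dlk1+ libraries against 879.9, 591, 737 and 1066 CPM in the Dlk1- libraries, lowest in the shallow Dlk1+ replicate 3.

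For the variation between cells, each cell was thinned to 2000 UMIs, which left 190 of 220 Dlk1+ and 307 of 321 Dlk1- cells. At that depth Gapdh was seen in 84.0% of cells on average over the 8 libraries (4 cells in Dlk1+ replicate 3), Pkm in 66.0%, Ldha in 52.4%, Gpi1 in 46.2%, Aldoa in 45.9%, Tpi1 in 26.5%, Hk1 in 25.02%, Pfkl in 13.1%, Pgk1 in 10.2% and Eno1 in 9.31%. In the 4 cells of Dlk1+ replicate 3 Pgk1 was seen in 25%, Eno1 in 0% and Hk1 in 50%. The order of Pgk1 and Eno1 rested on that library. With all UMIs the shares over the 8 libraries were 89.9% for Gapdh and 15.6% for Pgk1. No sorted cell type that lacks glycolysis was at hand as a background. Unused barcodes held 0.103 UMIs of the 10 enzymes per barcode (75 UMIs on 728 barcodes), against 14.5 per cell on the used side.

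The 10 enzymes summed to 5.29, 8.04 and 6.30 UMIs per thinned cell in Dlk1+ replicates 1, 2 and 4 and to 5.28, 6.24, 5.24 and 6.42 in Dlk1- replicates 1 to 4. Dlk1+ replicate 3 had only 4 cells of that depth and is left out here. The group means were 6.55 ± 1.39 (n = 3) and 5.79 ± 0.62 (n = 4) and the ranges overlapped. Thinned to 1000 UMIs, with all 8 libraries, they were 3.97 ± 1.34 and 2.87 ± 0.34. Single cells ranged from 0 to 21 UMIs at 2000. Cells without any enzyme UMI made up at most 7.32% of a library, in Dlk1+ replicate 1.

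**Figure D4:**
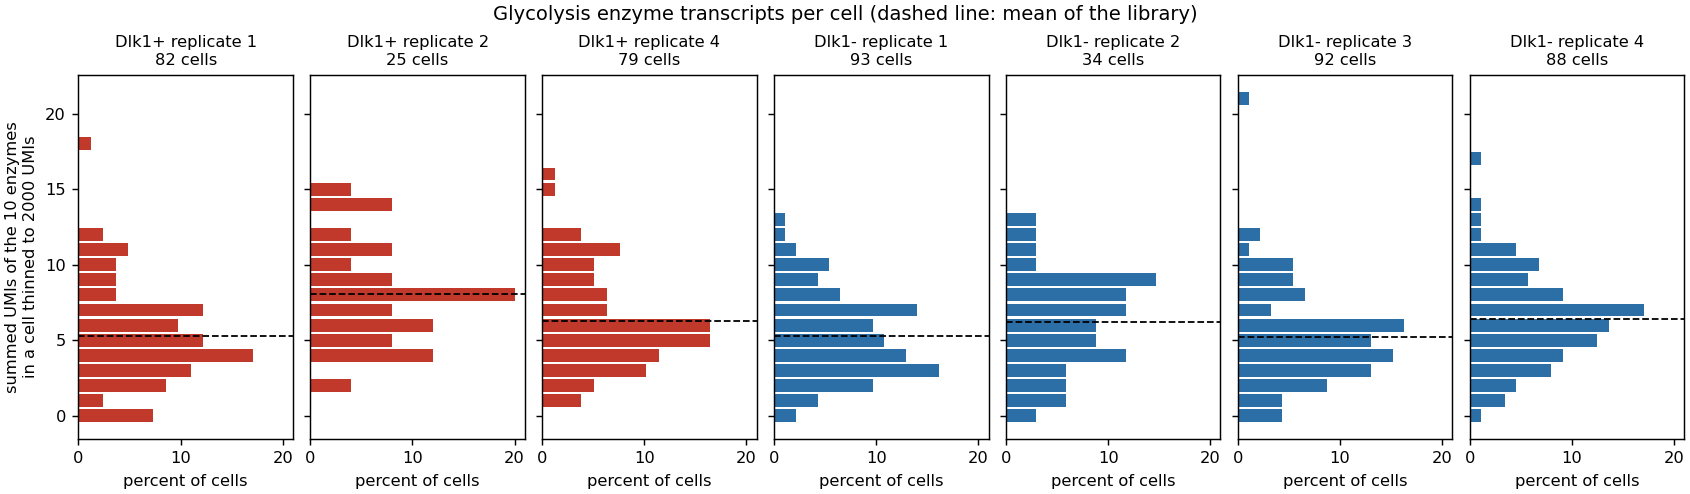
Percent of cells (horizontal axis) by the summed UMIs of the 10 enzymes (vertical axis) after thinning to 2000 UMIs, for the 7 libraries with at least 20 such cells, Dlk1+ in red and Dlk1- in blue. The dashed lines mark library means of 5.24 to 8.04 UMIs. Single cells spread from 0 to 21 UMIs, and Dlk1+ replicate 2, with 25 cells, has the highest mean.

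The Fano factor, the variance of the UMIs over their mean, equals 1 for pure counting noise. Among the members it ran from 0.96 ± 0.10 for Gpi1 to 1.31 ± 0.36 for Ldha (SD over 7 libraries). Gapdh had 1.30 ± 0.18, Aldoa 1.23 ± 0.23, Pkm 1.22 ± 0.18 and Tpi1 1.08 ± 0.14, and Hk1, Pfkl, Eno1 and Pgk1 lay between 0.999 and 1.05. The median over all genes of at least 100 CPM was 1.11, with quartiles at 1.03 and 1.24. The summed UMIs of the 10 enzymes had a Fano factor between 1.44 and 2.09 per library. That range lies above the mean of each member over libraries, but single libraries reached 1.94 for Ldha and 1.55 for Aldoa and for Pkm. No sum of other genes was set beside it.

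Pearson's r between 2 enzymes was computed over cells within each library and averaged over the 7 libraries with 493 cells, as a description. Cells of a library share its preparation, all values are parts of the same 2000 UMIs, and most members are sparse at this depth. The median over the 45 pairs was 0.038 and 35 pairs were above 0. Over all 643545 pairs of the 1135 genes of at least 100 CPM the median was 0.014 (quartiles -0.025 and 0.054) and 59.6% were above 0. Pfkl, Eno1 and Pgk1 lay below that level, so the enzyme pairs include rarer genes than the pairs beside them. The highest pairs were Tpi1 with Pfkl (0.16), Gapdh with Pkm (0.16), Gapdh with Ldha (0.15) and Gapdh with Gpi1 (0.15). Gapdh with Pkm and Gapdh with Gpi1 were above 0 in 7 of 7 libraries. The lowest pair was Eno1 with Pfkl (-0.05). Among adjacent steps of the pathway Aldoa had 0.11 with Tpi1 and Pgk1 0.07 with Gapdh, while Hk1 with Gpi1 (0.02), Gpi1 with Pfkl (0.01), Pkm with Ldha (0.01) and Eno1 with Pkm (-0.03) were near 0.

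Against the sum of the other 9 members Gapdh had the highest r, 0.26, above 0 in 7 of 7 libraries. Ldha had 0.17, Tpi1 and Gpi1 0.14, Pkm 0.14, Hk1 0.11, Aldoa 0.08, and Eno1, Pgk1 and Pfkl 0.06 each. Gm3839, which resembles Gapdh, had 0.51 with Gapdh (0.34 to 0.63 per library) and 0.29 with the other 9. Eno1b had 0.09 with Eno1.

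**Figure D5:**
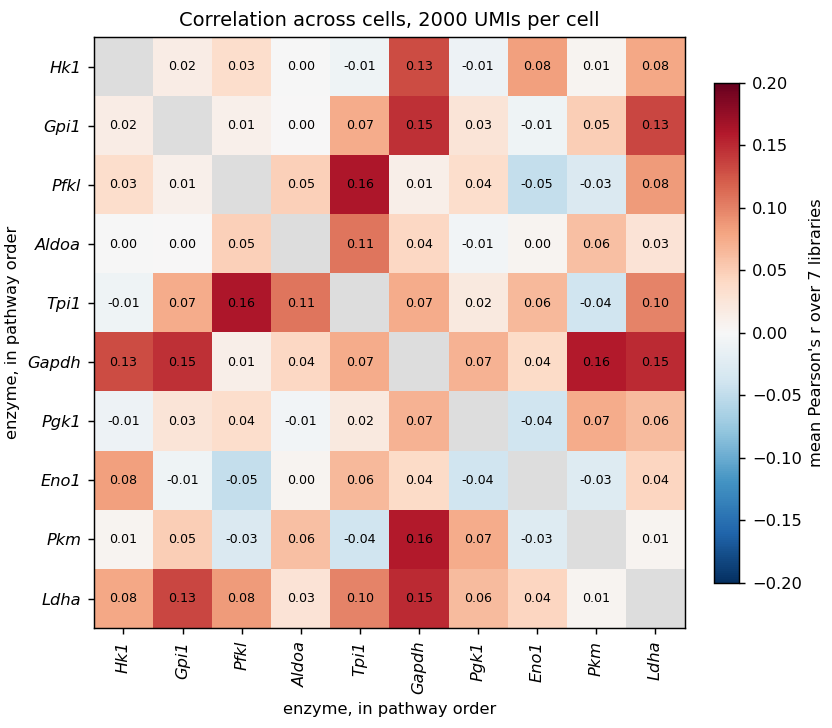
Mean within-library Pearson's r for each pair of enzymes, in pathway order on both axes, over cells thinned to 2000 UMIs in 7 libraries; red is above 0, blue below, and the diagonal is grey. Values run from -0.05 to 0.16, and the row of Gapdh has no negative value.

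The genes most like the sum of the 10 enzymes were found by the same r among 1115 genes of at least 100 CPM outside the 10. The highest were Gm3839 (0.46), the ribosomal proteins Rps6 (0.42), Rpl23 (0.40) and Rps20 (0.39), and the translation elongation factor Eef1a1 (0.41). The lowest were Gm26870 (-0.49), Gm10800 (-0.48), Gm29055 (-0.45), Gm21833 (-0.40) and Gm37158 (-0.38), and the median gene had 0.074. Summed ribosomal proteins had 0.57 ± 0.14 (SD over 7 libraries), nuclear genes of oxidative phosphorylation 0.52 ± 0.14, S phase genes 0.23 ± 0.09, HSC markers 0.09 ± 0.08, G2M genes 0.05 ± 0.13 and the mitochondrial genome -0.04 ± 0.24. The regulators of hypoxia had -0.04 ± 0.15 and the hypoxia targets outside glycolysis 0.15 ± 0.09. Regulators of quiescence and metabolism had 0.20 ± 0.20 and genes that set glycolytic flux 0.17 ± 0.14. The pentose phosphate branch had 0.12 ± 0.15, glucose and lactate transport 0.10 ± 0.12 and pyruvate entry to mitochondria 0.03 ± 0.05. Per cell, the summed CPM of the 10 enzymes correlated with the depth of the cell, with r of 0.01 to 0.59 per library. The part of depth in these values was not tested.

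Since a cell rich in Gm10800 and Gm26870 has fewer of its 2000 UMIs left for all other genes, the likeness was repeated with both taken out before thinning (439 cells, 6 libraries). Ribosomal proteins then had 0.41 ± 0.21 and nuclear oxidative phosphorylation 0.40 ± 0.16, both above 0 in 6 of 6 libraries. The median gene had 0.037. The mitochondrial genome had -0.28 ± 0.28, below 0 in 5 of 6. S phase genes had 0.13 ± 0.11, HSC markers 0.03 ± 0.12, G2M genes 0.02 ± 0.12 and the regulators of hypoxia -0.07 ± 0.12. The hypoxia targets outside glycolysis had 0.11 ± 0.06, above 0 in 6 of 6 libraries, as were the S phase genes. The pentose phosphate branch had 0.11 ± 0.15, genes that set glycolytic flux 0.06 ± 0.09 and regulators of quiescence and metabolism 0.01 ± 0.14. Pyruvate entry to mitochondria had -0.04 ± 0.10 and glucose and lactate transport -0.05 ± 0.18. The median over the 45 enzyme pairs was 0.020 with 29 pairs above 0, against 0.0043 and 53.1% over all pairs of genes of at least 100 CPM. Gm3839 (0.33), Eef1a1 (0.32) and Rpl23 (0.29) remained among the 5 highest genes, now with Gnb2l1 (0.35) and Rps25 (0.32). The 5 lowest were Gm29055 (-0.32), Gm10717 (-0.31), Gm37158 (-0.30), Gm21833 (-0.29) and mt-Rnr2 (-0.29). Each of these low Gm genes was above 0 in 0 of 6 libraries, and mt-Rnr2 in 1 of 6.

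The order of the enzyme pairs was not kept in this repeat. Aldoa with Gpi1 became the highest pair (0.19, above 0 in 5 of 6 libraries, against 8.35e-05 before). Gapdh with Gpi1 had 0.17, above 0 in 6 of 6, and Gapdh with Ldha 0.10. Tpi1 with Pfkl had 0.06, Gapdh with Pkm 0.06 (above 0 in 5 of 6), Aldoa with Tpi1 -0.0039 and Pgk1 with Gapdh -0.02. Against the other 9 members Gapdh again had the highest r, 0.19, above 0 in 6 of 6 libraries. Gpi1 had 0.13, Ldha 0.11, Aldoa 0.10, Pfkl 0.05, Pkm and Tpi1 0.05 each, Hk1 0.03, Pgk1 0.03 and Eno1 0.00036. Gm3839 had 0.48 with Gapdh and 0.11 with the other 9.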

How the data were processed

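The values deposited by the authors are transcripts per gene symbol and cell barcode, 1 table per library, entered as another unit (UMI counts corrected for collisions, not scaled for depth). Inverting the usual correction for 4096 possible UMIs gave whole counts within 3.64e-12. BWA 0.6.2-r126 and the build mm10 are named in the submitters' processing notes; annotation and read filters are not given in the sources used here. Barcodes 1 to 96 (Dlk1+) or 97 to 192 (Dlk1-) were kept with at least 1000 transcripts. The 10 barcodes 17, 20 to 24 and 29 to 32, which carried haemoglobin RNA in the Dlk1- libraries where no cell was sorted to them, were left out. No doublet caller was run.

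Transcripts were summed per library. The planned edgeR test and the DESeq2 alternative were not run, because the unit could not be checked automatically as estimated counts; limma on log2(CPM + 1), the planned substitute, took their place (limma 3.58.1, R 4.3.3, empirical Bayes with an intensity trend, trimmed mean of M-values scaling). A gene was tested when 4 or more libraries reached the CPM that 10 transcripts have in a library of median size, and its total reached 15. The fit was tested on simulated data. The recovered whole UMIs were used for thinning, shares of cells and correlations. The 10 members and the lists were chosen with earlier results of these data known. Named genes were the members, their isoenzymes (some are not reported here), per list the genes past the threshold or else the 3 with the most UMIs, and the 5 highest and 5 lowest by likeness to the members' sum. Alternatives changed the scaling, filter, tool, pseudocount, blocks, minimum of transcripts and thinning, or left out libraries or single items. Positions come from GENCODE mouse release 21 and promoters from RefSeq.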

Additional observations from a re-analysis of the deposited data

Results flagged for a closer look

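In groups of 4 libraries, a value was marked when it stood apart from the other 3 by Dixon's criterion. Of 36 groups looked at 4 were marked, where chance marks about 1 in 20. Pgk1 had 59.1 CPM in Dlk1+ replicate 4, against 19.5 to 25.6 CPM in the other Dlk1+ libraries. The remaining 3 marks were all in Dlk1+ replicate 3, the library of 26 cells: Aldoa with 896 CPM against 265 to 357, Gapdh as 24.5% of Gapdh plus Gm3839 against 44.4% to 44.8%, and Eno1 as 0% of enolase transcripts (1 UMI in all) against 52.8% to 58.8%.

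A signal also lay outside the cells compared. The 10 barcodes left out held 1.23 UMIs of the 10 enzymes per barcode in the Dlk1- libraries (49 UMIs on 40 barcodes), where no cell was sorted to them, against 0.103 on the other unused barcodes. These barcodes also held more UMIs in all, 25978 on 40 barcodes against 23663 on 728, and the enzymes made up 0.189% of them against 0.317% on the other unused barcodes. Gapdh had 18 of these UMIs and Ldha 13.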

How the results depend on the processing

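No member was called under any of 21 alternatives. The count of all genes called was 0 in 18 of them, 2 by limma-voom (Dlk1 and Timp3), 1 with log2(CPM + 10), and 0 to 2 with a library left out (2 without Dlk1+ replicate 3, Socs3 and Dlk1). Directions of the members' fold changes were kept in 203 of 208 values. The exceptions were Tpi1, with 0.13 by limma-voom, 0.082 with a minimum of 2000 transcripts and -0.23 to 0.22 with a library left out; Pfkl, with -0.25 to 0.0058 with a library left out (the highest without Dlk1+ replicate 1); and Hk1, with -0.0071 to 0.49 (the lowest without Dlk1+ replicate 3). The cause was not tested. Pgk1 and Eno1 had too few UMIs for the thinned fit, and DESeq2 was not run. The settings log2(CPM + 10) and leaving out the cell with granule transcripts were chosen after seeing the data.

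Replicate numbers did not meet the rule used for pairing. Same-numbered libraries deviated together with r of 0.030 to 0.041 over genes, all under 0.1. Each Dlk1+ library still correlated best with the Dlk1- library of its own number. Mitochondrial shares were 10.95%, 8.05%, 13.27% and 11.77% in Dlk1+ replicates 1 to 4. In Dlk1- replicates 1 to 4 they were 10.17%, 8.75%, 12.56% and 11.62%, in the same order. Cell numbers differed in replicate 3, with 26 Dlk1+ and 95 Dlk1- cells. Whether the libraries are paired was not tested further, and the main fit had no replicate block. With the replicate block 0 genes were called, and 1 member (Aldoa) had an unadjusted p under 0.05, beside 180 of 5666 genes. Aldoa was also the 1 member at that level by limma-voom (369 genes), with minima of 500 (274) and 2000 transcripts (91) and thinned (49 of 2199 genes). Without Dlk1+ replicate 4 there were 3 (Aldoa, Gapdh and Ldha) beside 479 of 5045 genes.

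The summed level ranged from 0.24 to 0.65 with a library left out, members led 5 of 5 families under all 14 alternatives run, and the median pair correlation ran from 0.031 to 0.051 with a library left out. Cell numbers of 26 and 27 in Dlk1+ replicates 3 and 2, and 114 to 156 UMIs for Pgk1, Pfkl and Eno1, limit the precision.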
